A study of Mus musculus with 6 samples.

Results

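The genes described here are the CCAAT/enhancer binding proteins Cebpa, Cebpb, Cebpd, Cebpe and Cebpg, their relative Ddit3, and 3 transcription factors that act beside them in early blood cells, Spi1, Gfi1 and Myb. They were chosen by name, and each was read from the array's probe sets that carry its symbol and no other. Of the 9 genes, 8 had such a probe set, with 15 probe sets between them out of 34945 probe sets with 1 symbol. Cebpe is not analysed here. The study asked which transcripts in blood stem and progenitor cells depend on the nuclear receptors Nr4a1 and Nr4a3. Lin-Sca1+ bone marrow cells, a fraction enriched for stem and progenitor cells, were sorted from the tibias and femurs of mice aged 2 to 3 weeks and hybridised to Affymetrix arrays. The 3 DKO arrays came from Nr4a1-/-Nr4a3-/- mice in a hybrid C57BL/6 and 129SvJ background, made by crossing the 2 single knockout lines, so both genes were lost in every cell from the germline on. The 3 WT arrays came from wild type mice, whose strain the labels do not give, and each array of either genotype held RNA pooled from 10 to 20 mice.

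C/EBP factors are basic leucine zipper proteins that bind DNA as dimers and switch on genes of the myeloid lineage. Cebpa is needed for the step to granulocyte and monocyte progenitors, Cebpb carries the granulocyte output of infection and stress, and Cebpe is needed for late granule genes. Cebpg and Ddit3 lack much of the activating part and can hold other C/EBP proteins in inactive dimers, and Ddit3 is also known as the stress factor CHOP. Spi1 encodes PU.1, the myeloid and lymphoid master regulator of the ETS family, Gfi1 is a repressor needed by granulocyte progenitors and stem cells, and Myb is needed for progenitor growth.

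Nr4a1 gave a signal of 21.4 ± 12.9 on DKO arrays and 1065 ± 229.9 on WT arrays (SD, n = 3 each), with a log2 difference of -4.89 and a limma adjusted p of 1.95e-04. Nr4a3 had 3 probe sets below the signal needed for a test, so its loss is not checked. Median signals ran between 91.6 and 122.5 over the 6 arrays, and the correlation of log2 values was 0.927 to 0.944 among DKO arrays and 0.898 to 0.933 among WT arrays. WT replicate 2 stood apart: on that array all 10 tested neutrophil markers, all 9 B lineage markers and all 6 erythroid markers had their highest signal of the 6 arrays. Of the marker lists, the mast cell, basophil and eosinophil list averaged 1.24 to 1.46 on DKO arrays and -1.87 to -0.59 on WT arrays, as the mean log2 level after each gene was centred over the 6 arrays, and 8 of its 13 genes rose, where 1.71% of all 11529 genes changed in either direction. The T and NK cell list averaged 1.24 to 1.64 on DKO arrays and -1.82 to -1.19 on WT arrays, and 7 of its 11 genes rose. In this list and the one before it, some risen genes were dim in WT cells and entered the test through their DKO signal. Among them, mean WT signals were 13.3 for Cd3e, 19.2 for Gzmb, 10.2 for Fcer1a and 16.9 for Ccr3. The stem cell list averaged -0.57 to -0.43 on DKO arrays and 0.45 to 0.57 on WT arrays, and 5 of its 10 genes fell. The lineage-negative sort is meant to remove cells that carry mature lineage antigens, and whether some remained was not tested. The neutrophil marker S100a9 averaged 18012 in DKO and 19410 in WT cells, and the T cell marker Cd3g 806.4 and 91.0. Pax5, C1qa, Cd14, Xcr1 and Hba-a1 were below the signal needed for a test. Ly6a, the gene of the Sca1 antigen, had no usable probe set. In pooled bulk RNA, a change in the number of cells of a type and a change in RNA per cell cannot be told apart, which holds for every gene below.

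The start-site windows of 3 of these genes are shown first, Cebpa as the gene that rose, Cebpg as its neighbour on the chromosome, and Gfi1 as the gene whose window held a C/EBP motif. Each is the 250 bases before the annotated start in RefSeq (build GRCm38.p6), written 5′ to 3′ in the direction of transcription, with the motif matches in capitals. Of the 9 genes, 6 had a window, with 7 windows in all because Gfi1 has 2 annotated starts.
Cebpa: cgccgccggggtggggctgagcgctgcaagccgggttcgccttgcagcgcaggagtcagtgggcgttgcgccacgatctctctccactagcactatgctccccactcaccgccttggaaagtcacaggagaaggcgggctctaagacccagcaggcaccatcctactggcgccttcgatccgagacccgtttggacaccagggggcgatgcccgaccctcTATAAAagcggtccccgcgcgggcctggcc
Cebpg: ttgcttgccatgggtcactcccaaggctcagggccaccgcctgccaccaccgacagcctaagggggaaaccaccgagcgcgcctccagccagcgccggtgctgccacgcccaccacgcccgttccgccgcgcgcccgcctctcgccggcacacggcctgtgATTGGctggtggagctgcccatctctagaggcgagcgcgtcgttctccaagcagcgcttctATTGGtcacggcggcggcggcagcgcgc
Gfi1: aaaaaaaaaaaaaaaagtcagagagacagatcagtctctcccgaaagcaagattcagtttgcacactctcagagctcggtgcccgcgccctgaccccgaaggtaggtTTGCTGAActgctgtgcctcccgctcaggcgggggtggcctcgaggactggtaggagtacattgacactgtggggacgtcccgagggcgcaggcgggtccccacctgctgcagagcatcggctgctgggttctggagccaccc

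The Cebpa window lies at chr7:35119043-35119292 on the plus strand, is 66.4% G and C, and holds a TATA box (TATAAA) at 30 to 25 bases before the start. The Cebpg window lies at chr7:35056567-35056816 on the minus strand, close to Cebpa on the same chromosome, and holds 2 CCAAT boxes on its reverse strand (read as ATTGG), at 89 to 85 and 28 to 24 bases before the start. The Gfi1 window lies at chr5:107725806-107726055 on the minus strand and holds a C/EBP motif (TTGCNNAA, where N is any base) at 143 to 136 bases before the start. Both strands were searched for 7 motifs, and GC boxes overlapped only other GC boxes. Over all 32851 RefSeq windows of this length, TATAAA occurred in 12.4%, CCAAT in 33.8% and TTGCNNAA in 9.56%. The same share was 32.7% for the GC box (GGGCGG), which occurred 5 times in the Cebpb window and 3 times in the Myb window, and the Ddit3 window held 1 CCAAT box. The NBRE (AAAGGTCA), the element that Nr4a receptors bind as monomers, occurred in 1.34% of all windows and in none of the 7. The PU.1 motif (GAGGAAGT, 2.44% of all windows) and the composite C/EBP-ATF motif (TGATGCAA, 0.791%) were not found in them either.

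Cebpa was higher on DKO arrays, as read on 1418982_at, the only probe set that carried its symbol alone, so no other could be compared. Its signal was 1510.4, 1308.7 and 1559.7 on the 3 DKO arrays and 590.6, 663.3 and 566.5 on the 3 WT arrays. Every DKO value lay above every WT value, and the spread within each genotype was small, the highest array being 1.19 times the lowest in DKO and 1.17 times in WT. The means were 1459.6 ± 133 in DKO cells and 606.8 ± 50.4 in WT cells (SD, n = 3 each). Its log2 difference on the log2(signal + 16) scale was 1.24 ± 0.23 (SE), with a 95% interval of 0.74 to 1.75, a 2.37-fold change, and Cebpa rose with a limma adjusted p of 0.0242. Of the 14 tested probe sets of the 8 genes, this 1 rose and none fell, where 1.37% of all 27022 tested probe sets changed and 0.807% rose.

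The Cebpa difference was modest among the probe sets that rose. It ranked 205 by p among the 27022, and 33 of the 218 risen probe sets had a smaller difference, their median being 2.30. Leaving out WT replicate 2 gave a difference of 1.31 and an adjusted p of 0.0237, but leaving out any other array moved the adjusted p over the threshold of 0.05, to between 0.0521 and 0.120, with differences of 1.19 to 1.32. Without the intensity trend in the variance estimate the same difference had an adjusted p of 0.0879.

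**Figure D1:**
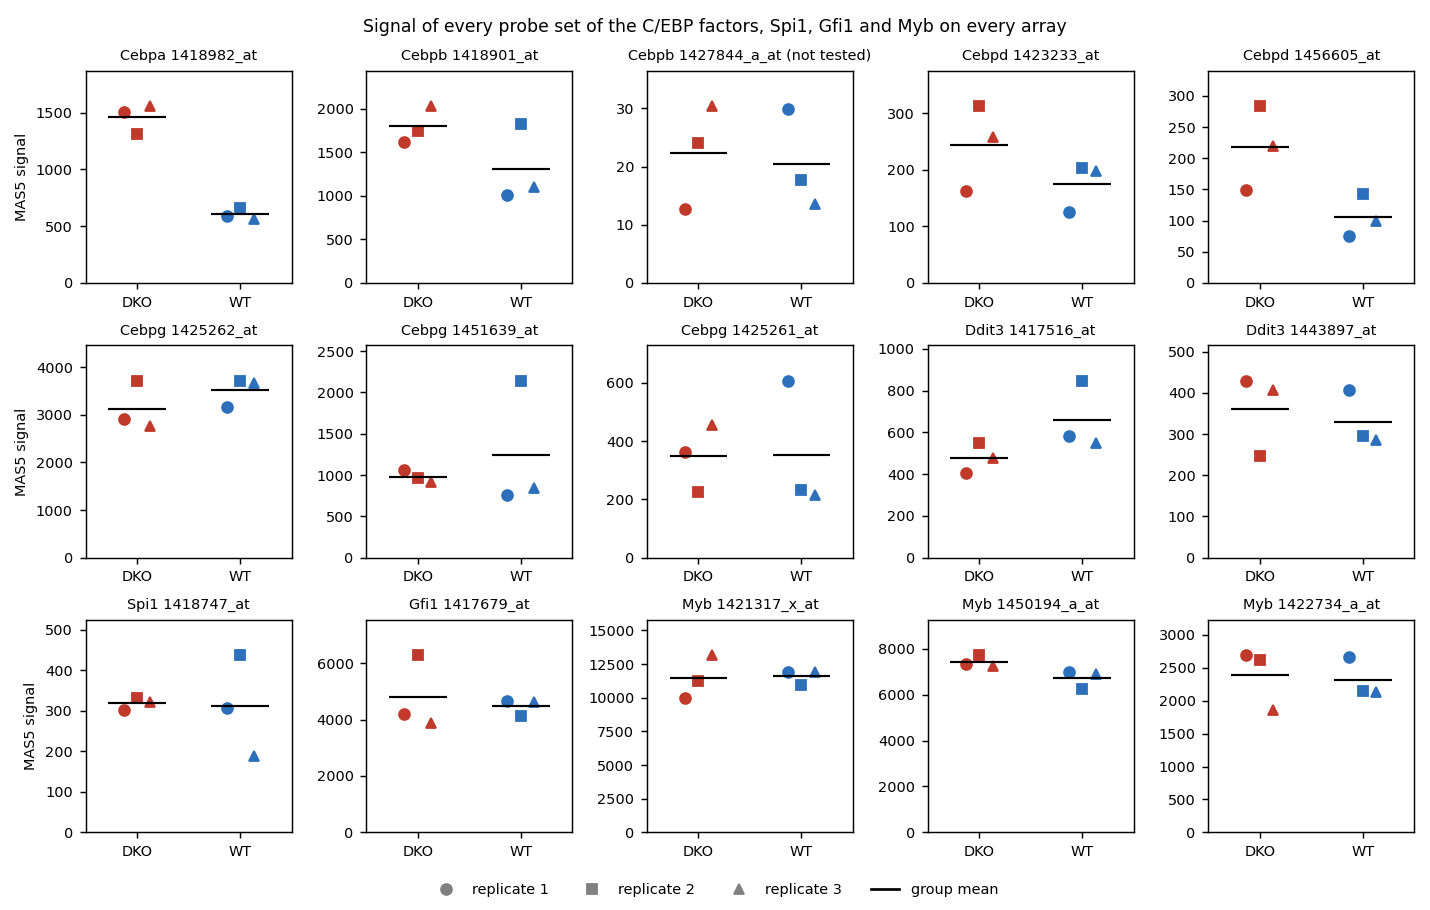
Signal of every probe set of the C/EBP factors, Spi1, Gfi1 and Myb, with 1 point per array, a line at the mean of each genotype, and DKO left of WT on linear axes that start at 0. The Cebpa values of the 3 DKO arrays, 1308.7 to 1559.7, all lie above the 3 WT arrays, 566.5 to 663.3, while most other probe sets overlap.

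Cebpb, the factor of emergency granulocyte production, did not pass the test. Its main probe set read 1613.4, 1742.0 and 2030.2 in DKO cells and 1004.5, 1827.9 and 1095.2 in WT cells. All 3 DKO arrays lay above WT replicates 1 and 3, and WT replicate 2 lay among the DKO values. The log2 difference was 0.50 ± 0.26, with an interval of -0.07 to 1.06 and an adjusted p of 0.410. Without WT replicate 2 it was 0.76 with an adjusted p of 0.157. A second probe set of Cebpb was dim on every array, with 12.7, 24.0 and 30.4 in DKO cells and 29.9, 17.7 and 13.6 in WT cells, and was not tested in the filtered fit.

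Cebpd, an early responder to inflammatory signals, had 2 tested probe sets with higher means in DKO cells, and neither passed the test. The probe set 1456605_at gave 148.8, 283.7 and 219.9 in DKO cells and 74.9, 142.8 and 99.9 in WT cells, so every DKO value lay above every WT value by a narrow gap. Its log2 difference was 0.93 ± 0.42, with an interval of 0.01 to 1.86, an unadjusted p of 0.0483 and an adjusted p of 0.349. The other, 1423233_at, gave 162.1, 312.6 and 257.4 in DKO cells and 124.7, 203.9 and 197.8 in WT cells, which overlap, with a log2 difference of 0.42 and an adjusted p of 0.687. On both probe sets DKO replicate 1 was the lowest of its group and WT replicate 1 the lowest of all.

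Cebpg, the ubiquitous C/EBP protein that mostly acts as a partner, had 3 tested probe sets whose groups all overlapped. The brightest, 1425262_at, read 2919.7, 3717.2 and 2756.0 in DKO cells and 3175.7, 3709.3 and 3667.4 in WT cells. The difference was -0.18, with an interval of -0.58 to 0.23 and an adjusted p of 0.724. On 1451639_at the signals were 1064.5, 965.1 and 912.2 in DKO cells and 761.5, 2141.1 and 840.9 in WT cells, and WT replicate 2 alone set the sign. The log2 difference was -0.18 with all arrays and 0.28 without that array. On 1425261_at they were 363.0, 224.4 and 455.5 in DKO cells and 606.8, 230.4 and 215.5 in WT cells, with a log2 difference of 0.09, and -0.12 without WT replicate 2. The 3 probe sets thus did not share a sign.

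Ddit3, the stress-induced inhibitor of C/EBP dimers, also gave different signs on its 2 probe sets. On 1417516_at it read 403.5, 547.9 and 478.0 in DKO cells and 583.4, 846.9 and 549.7 in WT cells. The groups did not overlap, but the highest DKO array and the lowest WT array were nearly equal. The log2 difference was -0.44 ± 0.29, with an interval of -1.08 to 0.20 and an adjusted p of 0.540. Leaving out WT replicate 2 gave -0.25 (adjusted p 0.773). On 1443897_at the signals were 429.7, 246.3 and 408.1 in DKO cells and 407.4, 296.6 and 285.4 in WT cells, with a log2 difference of 0.10 and an adjusted p of 0.933.

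Spi1, which encodes PU.1, read 301.5, 331.7 and 322.2 in DKO cells and 308.4, 437.0 and 187.7 in WT cells. The DKO arrays sat close together and inside the WT range, the highest array being 1.10 times the lowest in DKO and 2.33 times in WT. The log2 difference was 0.11, with an interval of -0.70 to 0.91 and an adjusted p of 0.936. Leaving out WT replicate 2 gave 0.38 (adjusted p 0.713). Gfi1 read 4186.4, 6271.8 and 3889.7 in DKO cells and 4666.2, 4143.0 and 4619.0 in WT cells. DKO replicate 2 was the highest array and DKO replicate 3 the lowest, so that the WT range lay within the DKO range. The log2 difference was 0.06, with an interval of -0.37 to 0.50 and an adjusted p of 0.927.

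Myb, the progenitor factor, gave strong signals on 3 probe sets with narrow intervals. On 1421317_x_at it read 9991.3, 11257.7 and 13143.0 in DKO cells and 11898.4, 10982.8 and 11905.7 in WT cells, with a log2 difference of -0.02 and an interval of -0.33 to 0.28. On 1450194_a_at it read 7345.8, 7710.2 and 7235.0 in DKO cells and 6985.8, 6264.8 and 6920.3 in WT cells. There every DKO value lay above every WT value, with a log2 difference of 0.14, an interval of -0.16 to 0.45 and an adjusted p of 0.697. On 1422734_a_at it read 2688.0, 2618.1 and 1856.3 in DKO cells and 2660.5, 2154.2 and 2128.2 in WT cells, with a log2 difference of 0.03 and an adjusted p of 0.968. All 3 intervals included 0 and stayed under 0.5 in size on the log2 scale.

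**Figure D2:**
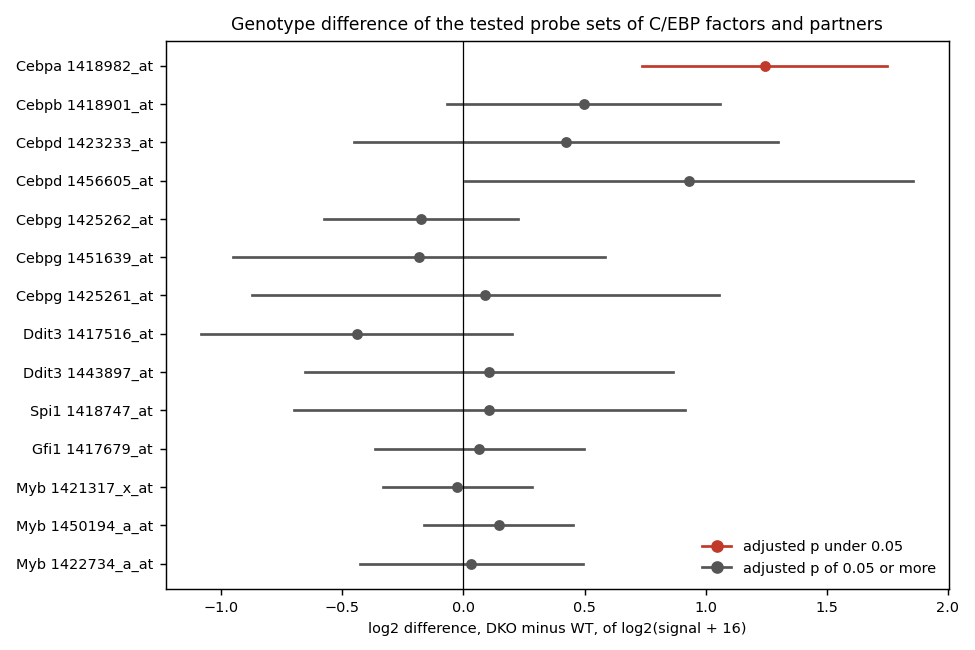
Log2 difference, DKO minus WT, of the 14 tested probe sets, each point with its 95% interval from limma. Cebpa stands at 1.24 with an interval of 0.74 to 1.75, and apart from Cebpd 1456605_at, at 0.93 with 0.01 to 1.86, the other intervals include 0.

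Over the 14 tested probe sets, 10 were higher and 4 lower in DKO cells, and the median difference was 0.10, where the median over all tested probe sets was -0.05. The groups did not overlap on 4 of the 14, 3 higher and 1 lower in DKO cells, where 19.8% of all tested probe sets did not overlap. Centring each array on its median moved the median of all probe sets by 0.107 on the log2 scale, and Cebpa then had a difference of 1.35. WT replicate 2 had the highest WT signal on 8 of the 14.

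The change of Cebpa was next set against that of each other gene on the same arrays, where a scale factor of the array cancels. The values compared were the differences, not the levels, and each gene was read on its brightest probe set. The Cebpa difference exceeded that of Cebpb by 0.75, Cebpd by 0.82, Spi1 by 1.14, Gfi1 by 1.18, Myb by 1.27, Cebpg by 1.42 and Ddit3 by 1.69 on the log2 scale. For Cebpd the gap depended on the probe set: the dimmer 1456605_at had a difference of 0.93 against 1.24 for Cebpa, a smaller gap. In 6 of the 7 comparisons the relative level of Cebpa was higher on every DKO array than on every WT array, the exception being Cebpd. The exact two-sided permutation test gave p = 0.1 for these 6, the smallest p that 3 arrays against 3 allow, and p = 0.2 for Cebpd, with values adjusted over the 7 comparisons of 0.117 and 0.2. With this number of arrays the test cannot pass the threshold. Cebpa was also the only gene of the group that rose, so a larger difference than the others follows partly from that choice. The share of other gene pairs without overlap was not computed.

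Across the 6 arrays, the profiles of 5 genes lay nearest to that of Cebpa. The measure was the mean absolute difference between log2 profiles, each centred on its own mean, over 11528 other genes, whose median was 0.67. Tmem71 was nearest at 0.054, followed by Slc12a9 at 0.098, Csf2rb at 0.098, Gsr at 0.104 and Dock5 at 0.106. Csf2rb encodes the shared beta chain of the receptors for the cytokines GM-CSF, IL-3 and IL-5, and Gsr encodes glutathione reductase. Tmem71 read 1909.5, 1824.6 and 2039.9 in DKO cells and 776.4, 919.9 and 804.6 in WT cells, the same split between genotypes as Cebpa. Among the other C/EBP genes and partners, Cebpd 1456605_at at 0.353 and Cebpb at 0.374 were nearest and Ddit3 1417516_at at 0.842 was farthest. The likeness is a description of 6 arrays and carries no test, and the shared split largely follows from picking the genes by it. Of the 5, Slc12a9 did not pass limma (adjusted p 0.108), and Dock5 lay near the threshold (adjusted p 0.0481).

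**Figure D3:**
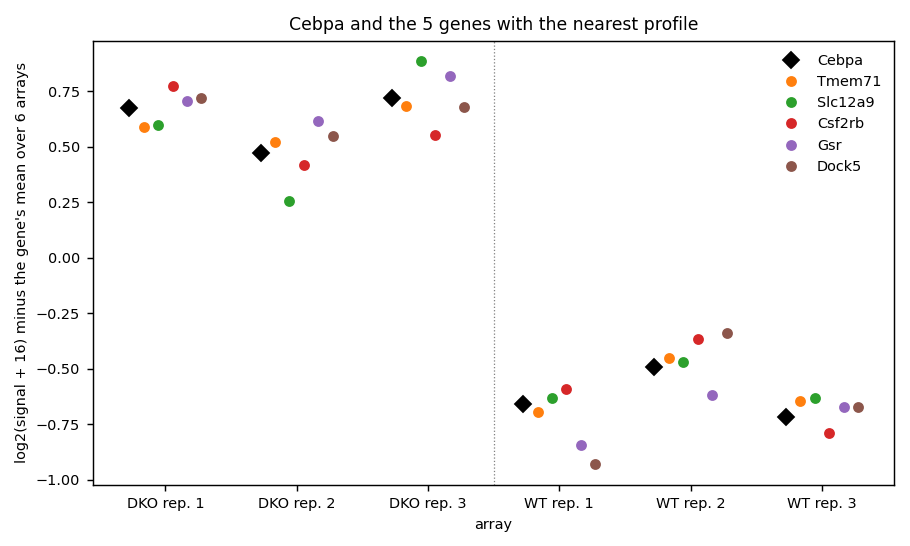
Centred log2 profile of Cebpa and of the 5 genes nearest to it, 1 column per array with DKO arrays left of WT arrays. All 6 genes lie above 0 on the 3 DKO arrays and below 0 on the 3 WT arrays, which largely follows from their choice by likeness to Cebpa.

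Genes around the C/EBP factors and their partners were read as 7 lists, each gene on its brightest tested probe set. Besides known targets, the lists hold relatives, cofactors, dimer partners, inhibitors and stress pathway genes. Of all 11529 genes so read, the 1.71% given above changed, and their median log2 difference was -0.01. Some genes stand in more than 1 list, and a gene that is dim in WT cells could enter the test through its DKO signal. Counts at an unadjusted p under 0.05, here and in the marker lists, stand without the share of all genes, which was not computed. Such values were common over the whole table: an unadjusted limma p of 0.0483 had an adjusted p of 0.348.

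Myeloid receptor and primary granule genes, which C/EBP and PU.1 proteins are known to bind, had 13 of 14 genes tested, of which 2 rose and none fell, with 10 higher and 3 lower and a median of 0.84. Ctsg, the gene of the granule protease cathepsin G, read 8181.5, 5880.8 and 10921.7 in DKO cells and 703.8, 2329.8 and 522.3 in WT cells. Every DKO array was above every WT array, and WT replicate 2 was the highest of the WT arrays. Ctsg rose by a log2 difference of 3.06 ± 0.44 with an adjusted p of 0.00602. Csf2rb read 5507.1, 4303.0 and 4719.7 in DKO cells and 2132.0, 2495.4 and 1857.4 in WT cells, and rose by 1.16 ± 0.19 with an adjusted p of 0.0117; its other tested probe set gave 1.78 (adjusted p 0.00902). Mpo, the myeloperoxidase gene, had a difference of 0.83 (adjusted p 0.167), and Elane, the neutrophil elastase gene, 0.55 (adjusted p 0.775). Csf3r, the G-CSF receptor gene, pointed the other way at -1.08 (adjusted p 0.230). Without WT replicate 2 the median was 1.15 and 3 genes rose: Ctsg, Csf2rb and Mpo.

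Secondary granule genes, which need Cebpe in late granulocytes, had 10 of 12 tested, and none changed by limma, with 0 at an unadjusted p under 0.05. Their median was -0.05, with 4 higher and 6 lower. The smallest p values belonged to Cxcr2, a chemokine receptor gene, at -0.84 (adjusted p 0.468) and Camp, the cathelicidin gene, at -0.42 (adjusted p 0.762). All 10 had their highest signal on WT replicate 2, and without that array the median was 0.86 and still none changed.

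Dimer partners and inhibitors of C/EBP proteins had 16 of 22 listed symbols tested. Rfwd2, an older name of Cop1, had no probe set of its own. Of the tested genes, 1 rose and 1 fell, with a median of -0.13. Id2 stands in this list but is known as an inhibitor of helix-loop-helix factors. It averaged 1823 in DKO cells and 319.6 in WT cells and rose by 2.54 ± 0.37 (adjusted p 0.00614). Its other probe set gave 1.47 and did not pass (adjusted p 0.177). Jun, the AP-1 subunit that can pair with C/EBP proteins, averaged 1945 in DKO cells and 5306 in WT cells and fell by 1.45 ± 0.28 on the log2 scale (adjusted p 0.0281), while another probe set gave -1.08 and did not pass (adjusted p 0.0650). Its relative Fosl2 had a difference of -1.11 (adjusted p 0.0588). Atf4, which pairs with C/EBP proteins on stress elements, had 0.09 (adjusted p 0.865), and Trib3, a Tribbles adaptor, -0.13 (adjusted p 0.910).

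Integrated stress and endoplasmic reticulum stress genes, the pathway that is known to induce Ddit3, had 18 of 20 listed symbols tested. Ero1l, an older name of Ero1a, had no probe set of its own. Of the tested genes, 2 rose and none fell, with 13 higher, 5 lower and a median of 0.32. Psat1, an enzyme of serine synthesis and a target of Atf4, averaged 8659 in DKO cells and 4550.2 in WT cells and rose by 0.94 ± 0.17 (adjusted p 0.0196), and its other probe set gave 0.83 (adjusted p 0.0260). Ero1a, an oxidase of the endoplasmic reticulum, averaged 1868 in DKO cells and 879.2 in WT cells and rose by 1.07 ± 0.23 (adjusted p 0.0492), while 2 further probe sets gave 1.11 and 1.33 and did not pass (adjusted p 0.0951 and 0.0717). Ppp1r15a, the gene of the phosphatase subunit GADD34, had -0.92 (adjusted p 0.409). Neither probe set of Ddit3 itself passed.

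Relatives, partners and targets of PU.1 had 15 of 17 tested, of which 1 rose and 1 fell, with a median of 0.18. Irf8, a monocyte and dendritic cell factor that binds DNA with PU.1, averaged 2287 in DKO cells and 582.0 in WT cells and rose by 2.07 ± 0.37 (adjusted p 0.0194), and its other probe set gave 1.505 (adjusted p 0.0473). Flt3, a cytokine receptor of lymphoid and multipotent progenitors, averaged 579.5 in DKO cells and 1737 in WT cells and fell by 1.54 ± 0.25 on the log2 scale (adjusted p 0.0108).

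Relatives, cofactors and targets of Gfi1 had 10 of 13 tested, none rose and 2 fell, with a median of -0.14. Hoxa9 and Meis1 are homeobox genes of stem and progenitor cells. Hoxa9 averaged 7075 in DKO cells and 12834 in WT cells and fell by 0.86 ± 0.16 on the log2 scale (adjusted p 0.0259), while its other probe set gave -0.37 and did not pass (adjusted p 0.677). Meis1 averaged 922.9 in DKO cells and 2466 in WT cells and fell by 1.33 ± 0.28 on the log2 scale (adjusted p 0.0456), while its 2 other probe sets gave -0.52 and -0.78 and did not pass (adjusted p 0.582 and 0.253). With median centring neither passed, at an adjusted p of 0.155 for Hoxa9 and 0.0561 for Meis1. The corepressor gene Kdm1a had -0.01 (adjusted p 0.980), and Meis1 is also 1 of the 10 tested stem cell markers.

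Relatives, cofactors and targets of Myb had 14 of 15 tested, and none changed by limma, although 9 had an unadjusted p under 0.05, with 5 higher, 9 lower and a median of -0.56. Such unadjusted counts were also high in other lists: 8 of 13 myeloid, 7 of 16 partner and 7 of 18 stress genes. They were 5 of 15 in the PU.1 list and 4 of 10 in the Gfi1 list. Cd34, a progenitor surface antigen gene, had -0.78 ± 0.19 (adjusted p 0.0672), and Lmo2, a stem cell cofactor gene, -0.50 ± 0.13 (adjusted p 0.0896). Cd34 and Kit, the latter at -0.60 (adjusted p 0.166), are also among the 10 tested stem cell markers. Myc, a driver of cell growth, had 0.56 (adjusted p 0.249).

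**Figure D4:**
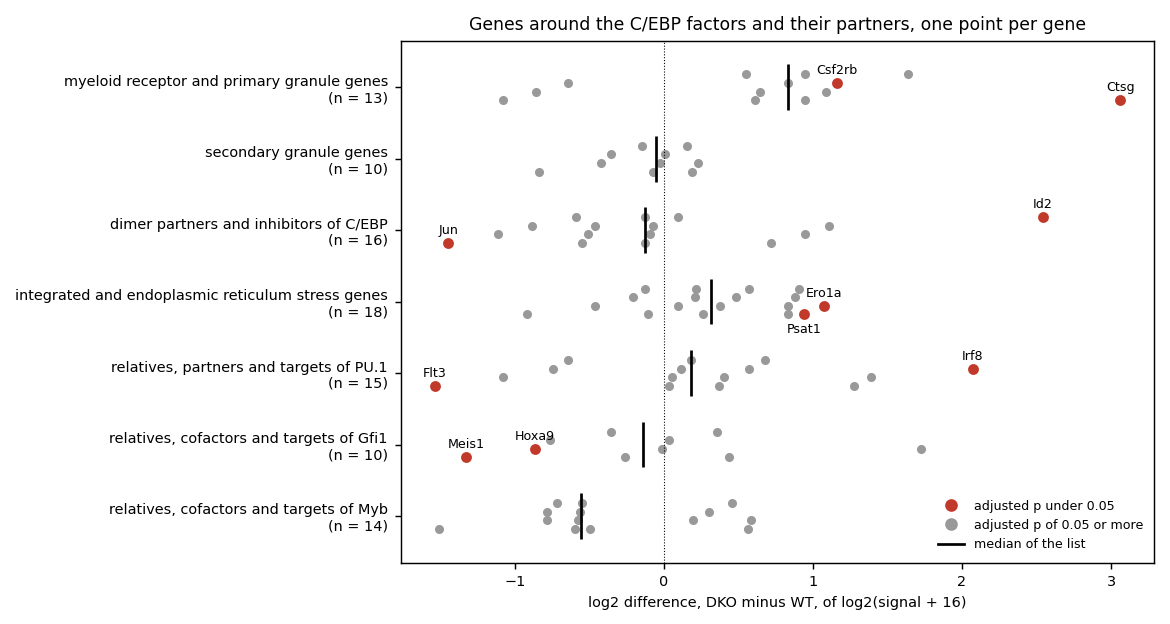
Log2 difference, DKO minus WT, of every tested gene in the 7 lists, 1 point per gene, with genes past an adjusted p of 0.05 named and the median of each list marked. Ctsg lies farthest to the right at 3.06, and the list medians run between -0.56 and 0.84.

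Of 6 fits that each left out 1 array, Ctsg and Id2 kept the call in 5, losing it without DKO replicate 3, Csf2rb and Flt3 in 3, Hoxa9, Irf8, Jun and Psat1 in 2, and Ero1a and Meis1 in 1. Without the intensity trend none of these 10 passed, with adjusted p between 0.0609 and 0.227.

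Cebpa moved alongside several of the marker lists. Its centred level had the same split between genotypes as the mast cell, basophil and eosinophil list and the T and NK cell list, and the opposite split to the stem cell list and the B lineage list, and the part of these in the Cebpa difference was not tested. The B lineage list averaged -0.58 to -0.32 on DKO arrays and -0.26 to 1.45 on WT arrays, and its 9 tested genes all had lower means of log2 signal in DKO cells, of which none passed the test and 3 had an unadjusted p under 0.05. The neutrophil list averaged -0.39 to 0.10 on DKO arrays and -1.03 to 1.53 on WT arrays, and none of its 10 tested genes changed, 1 having an unadjusted p under 0.05. The monocyte, macrophage and dendritic cell list averaged 0.02 to 0.36 on DKO arrays and -0.54 to 0.32 on WT arrays, with 1 of 9 genes risen (Ccr2) and 1 fallen (Flt3). The erythroid list averaged -0.42 to -0.15 on DKO arrays and -1.07 to 1.62 on WT arrays, with 1 of 6 fallen (Car2). The median difference without WT replicate 2, against that with all arrays, was 0.52 against -0.16 in the neutrophil list, -0.24 against -1.04 in the B lineage list and -0.17 against -0.67 in the erythroid list. Among defining markers, Ms4a2, the mast cell and basophil receptor subunit gene, averaged 4297 in DKO cells and 92.0 in WT cells, while Gzma, a cytotoxic granule protease gene, averaged 5450.0 in DKO cells and 362.0 in WT cells. Pax5, C1qa, Cd14, Xcr1 and Hba-a1 were below the limit for testing.

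**Figure D5:**
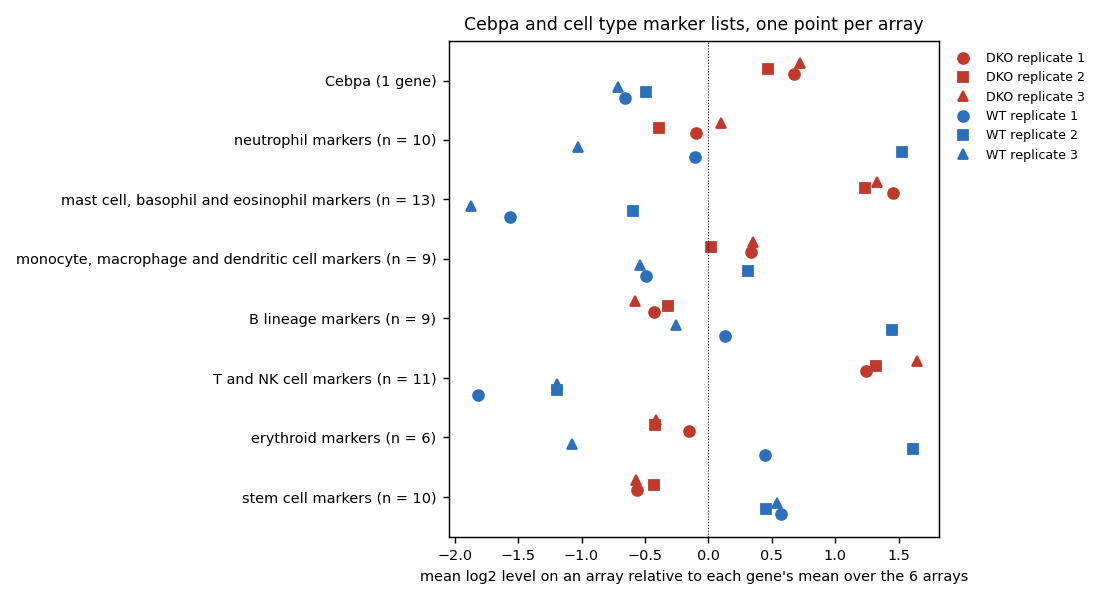
Level of Cebpa and mean level of each cell type marker list on every array, as centred log2 values, with DKO points above WT points in each row. DKO and WT arrays separate for Cebpa, the mast cell, basophil and eosinophil list, the T and NK cell list, the B lineage list and the stem cell list, and WT replicate 2 lies apart at 1.53 in the neutrophil list.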

How the data were processed

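Lin-Sca1+ bone marrow cells were profiled on 6 arrays, 3 DKO and 3 WT, grouped by the genotype in the labels. The values are intensities of Affymetrix probe sets on a linear scale, made by the authors with MAS5, per the submitters' processing notes; its version and the array annotation release are not given in the sources used here. In the deposited table each array has a 2% trimmed mean of 500. Of 45101 probe sets, 64 controls were left out, and 45037 remained. Of these, 34945 carried 1 gene symbol in the platform annotation, 932 several and 9160 none; genes were named only from the first kind.

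From the deposited intensities, log2(signal + 16) was computed, the dimmest 40% of probe sets by mean (signal under 53.2) were dropped, and the other 27022 entered a linear model in limma 3.58.1 under R 4.3.3 (lmFit, eBayes with an intensity trend, two-sided). P-values were adjusted by Benjamini-Hochberg over all tested probe sets, and the threshold was 0.05. The pseudocount understates the fold change of dim genes. The fit was tested on simulated data. Depth does not apply to arrays; their number limits the precision. The labels call the arrays biological replicates from independent pools and name no batch.

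All probe sets of the listed genes are given. From each related list, up to 4 genes past the threshold with the smallest p are named, otherwise the 2 with the smallest p. Other list genes given by value were chosen after their values were seen. Genes were represented by their brightest tested probe set. The genes, the 7 related and 7 marker lists and the rules were chosen with earlier results of these data known. Promoter windows came from RefSeq, GRCm38.p6. Tables and plots were made with Python 3.11.15, pandas 2.3.3 and matplotlib 3.10.9. Alternatives covered the pseudocount, the filter, quantile normalization and median centring, the intensity trend, array weights, a replicate block, the threshold, averaging the probe sets of a gene, and each array left out in turn.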

Additional observations from a re-analysis of the deposited data

How the results depend on the processing

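Cebpa was past the threshold with a pseudocount of 1 or 64, with no filter or a 60% filter, with quantile normalization, median centring or array weights, and without WT replicate 2. It was not with no intensity trend (1.24, adjusted p 0.0879), with the replicate block (1.24, adjusted p 0.0508) or without any of the other 5 arrays, whose removal, with that of WT replicate 2, gave differences of 1.19 to 1.32. The count of called probe sets among the C/EBP genes and partners was 0 with no trend and with the replicate block, and 0 to 1 over the left-out arrays. Same-numbered arrays correlated at 0.142, -0.031 and 0.053 in their deviations from the genotype means, and differently numbered arrays at -0.132 to 0.063. With 3 arrays per genotype these values cannot decide whether equal numbers mark pairs, which the labels do not say. With the block, 312 probe sets passed over the whole table, where 370 passed without it. That count was 208 with no filter, 88 with no trend, 563 with array weights, 738 at a threshold of 0.10, and 104 to 469 over the left-out arrays (DKO replicate 3 the lowest, WT replicate 2 the highest). Of 207 values of the other 13 tested probe sets, 192 kept their sign and stayed short of the threshold and 15 turned their sign: Myb 1422734_a_at to -0.003 with quantile normalization, Myb 1421317_x_at to 0.083 with median centring, Cebpg 1425261_at to -0.059 with array weights, and the rest with an array left out. Those ranges were -0.45 to 0.285 for Cebpg 1451639_at, -0.16 to 0.55 for Cebpg 1425261_at, -0.035 to 0.35 for Ddit3 1443897_at, -0.20 to 0.38 for Spi1, -0.15 to 0.20 for Gfi1, -0.13 to 0.07 for Myb 1421317_x_at and -0.062 to 0.20 for Myb 1422734_a_at. Among the related lists, the count of changed genes in the stress list was 1 with a pseudocount of 1, with no filter and with the replicate block. The Gfi1 list had 1 with quantile normalization or a pseudocount of 1, and 0 with no filter, with median centring and with averaging of a gene's probe sets. With no trend the myeloid, partner, stress, PU.1 and Gfi1 lists all had 0. The partner list had 1 with no filter, and the Myb list 1 with quantile normalization or array weights and 2 at a threshold of 0.10 or with the mean over probe sets. Over the left-out arrays the counts ran 0 to 2 in the stress, partner and Gfi1 lists, 0 to 3 in the myeloid and PU.1 lists, and stayed 0 in the Myb and secondary granule lists. The stress median was 0.479 with a pseudocount of 64 and 0.165 to 0.44 over the left-out arrays. The Myb median was -0.33 with the mean over probe sets and -0.609 to -0.398 over the left-out arrays. The other medians ran 0.58 to 1.15 (myeloid), -0.86 without WT replicate 3 to 0.86 without WT replicate 2 (secondary granule), -0.39 to -0.09 (partners), 0.01 without WT replicate 3 to 0.55 without WT replicate 2 (PU.1) and -0.18 to -0.05 (Gfi1). The cause was not tested.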
